A study of Mus musculus with 9 samples.

Results

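The 10 genes described here encode the enzymes with which liver turns amino acid nitrogen into urea, and 4 further enzymes that break down single amino acids. They were chosen by name: Cps1, Otc, Ass1, Asl, Arg1 and Nags for the urea cycle, and Gls2, Sds, Tat and Hal for glutamine, serine, tyrosine and histidine. They are 10 of 23440 genes analysed, no measured value enters that choice by name, though it was made with earlier results of these data known, and all 10 passed the filter on low values, under which a gene had to reach 1 TPM in 3 or more libraries. TPM is a relative transcript abundance corrected for transcript length, so levels of different genes can be set side by side on it.

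Liver RNA of C57Bl6 mice was sequenced in 9 libraries, 3 in each of 3 groups. Young mice were 2 months old and untreated, aged mice were 20 to 22 months old and untreated, and a further group of 20 to 22 months received chow with PD-0332991 for 2 weeks. PD-0332991 is palbociclib, which blocks the kinases CDK4 and CDK6 of the cell cycle; its amount, per the labels, was 450 in the unit mg/k, and the untreated mice ate standard chow. The labels name neither the sex, the fasting state nor the hour of sacrifice, there was no treated young group, and both aged comparisons use the same 3 aged untreated libraries. The labels leave it unsaid if each library is a mouse of its own, so the p-values here reflect only how much libraries of a group differed, which may be technical.

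In the urea cycle, ammonia and bicarbonate are joined in the mitochondria by carbamoyl phosphate synthetase, which works only when bound to the N-acetylglutamate that the Nags product makes. The carbamoyl group is passed to ornithine, aspartate brings in a further nitrogen, and arginase releases urea and restores ornithine. Periportal hepatocytes hold most of these enzymes, and a narrow pericentral layer captures the ammonia that is left as glutamine. Glucagon, glucocorticoids and protein intake are known to raise the enzymes' transcripts, together with those of gluconeogenesis, which uses the carbon skeletons.

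The libraries carried the transcripts of hepatocytes: 11 of 12 markers passed the filter on low values, and the 12 together summed to 54971 to 61760 TPM in each library. Alb was listed at 0 in all 9 libraries, so a listed 0 is not read as absence. Sequencing depth is not known from TPM, and the listed values summed to 53.1% to 57.7% of the full TPM scale per library. In whole tissue, fewer cells of a type and less RNA per cell cannot be told apart.

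The members were abundant transcripts, and Nags stood last in each group. By mean TPM over the 9 libraries, Ass1 ranked 83 and Arg1 112 among the 10161 genes tested, and Nags, the lowest member, ranked 1473. Together the 10 members made up 0.536% to 0.577% of the listed TPM in young, 0.564% to 0.694% in aged and 0.530% to 0.669% in treated libraries. In young liver the order of mean levels ran Arg1, Ass1, Cps1, Tat, Asl, Otc, Sds, Gls2, Hal, Nags, and clear gaps with no overlap of libraries lay only between Ass1 and Cps1, Tat and Asl, and Hal and Nags. In aged liver Ass1 stood first, and every aged Ass1 library was above every aged Arg1 library. In treated liver the order began Ass1, Tat, Arg1, with Tat and Arg1 overlapping, as did Ass1 and Tat.

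**Figure D1:**
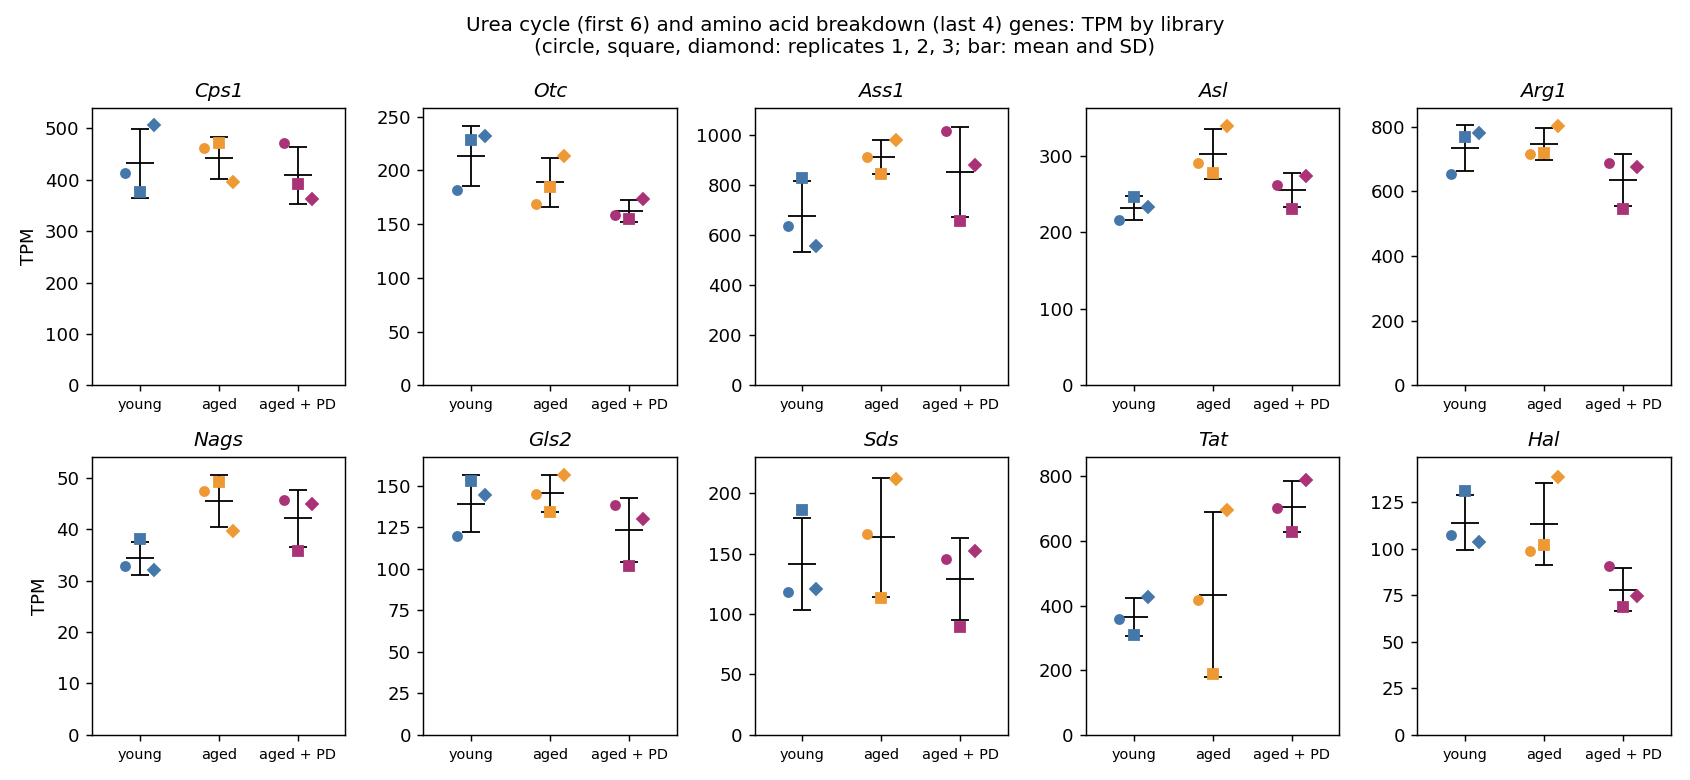
Transcript level of the 10 enzymes in TPM (vertical axes, each starting at 0) in the 3 young, 3 aged and 3 PD-0332991 treated libraries; symbols are single libraries and bars give the mean and SD. Ass1, Asl and Nags of the aged group lie above all young libraries, Hal of the treated group lies below all others, and the aged Tat libraries spread from 187 to 697 TPM.

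Ass1 needs care before its values are read, because mouse has a processed pseudogene of it that was listed with high values. Ass1 encodes argininosuccinate synthetase, which joins citrulline with aspartate, and lies on chromosome 2 from 31470207 to 31520672 in GRCm38; the pseudogene Gm5424 lies on chromosome 10 from 62071123 to 62072362. Over 1239 aligned bases of the Ass1 coding sequence the 2 transcripts have 6 mismatches and 0 gaps, an identity of 99.5%. A stretch of 60 bases, positions 369 to 428 of the coding sequence in the GENCODE transcripts, is shown 5′ to 3′ as an example of how little the 2 differ; the capital marks its 1 difference, T31C, counted from 1 at the 5′ end of the stretch.
Ass1: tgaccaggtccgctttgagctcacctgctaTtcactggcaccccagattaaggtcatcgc
Gm5424: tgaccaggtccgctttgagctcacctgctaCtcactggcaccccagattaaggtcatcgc
Of 2378 distinct words of 31 bases in the Ass1 transcripts, 1025 or 43.1% also occur in Gm5424, so how reads were divided between them is uncertain.

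Ass1 itself was listed at 639, 831 and 557 TPM in young, 913, 844 and 980 TPM in aged and 1016, 659 and 884 TPM in treated libraries. Gm5424 was listed at 283, 399 and 496 TPM in young, at 626, 563 and 606 TPM in aged and at 460, 478 and 479 TPM in treated libraries. All aged values of both genes lay above all young values, and the treated Ass1 values spanned both groups. Gm5424 held between 30.7% and 47.1% of the sum of both, and that share differed most within the young group.

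On the log2(TPM + 0.5) scale, aged minus young Ass1 was 0.45 ± 0.17 (SE, n = 3 per group) with a 95% confidence interval of 0.07 to 0.83, and the adjusted p of limma over all genes tested was 0.261. The sum of Ass1 and Gm5424, added after the data were seen, was 1068 ± 154 TPM (SD, n = 3) in young, 1510 ± 92.7 in aged and 1325 ± 173 in treated libraries. Its aged minus young log2 difference was 0.51 ± 0.13 (SE) with an adjusted p of 0.0859 (limma), and its treated minus aged difference was -0.20 with an adjusted p of 0.441. Neither Ass1 nor the sum passed the threshold of 0.05 in any of the 3 comparisons.

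**Figure D2:**
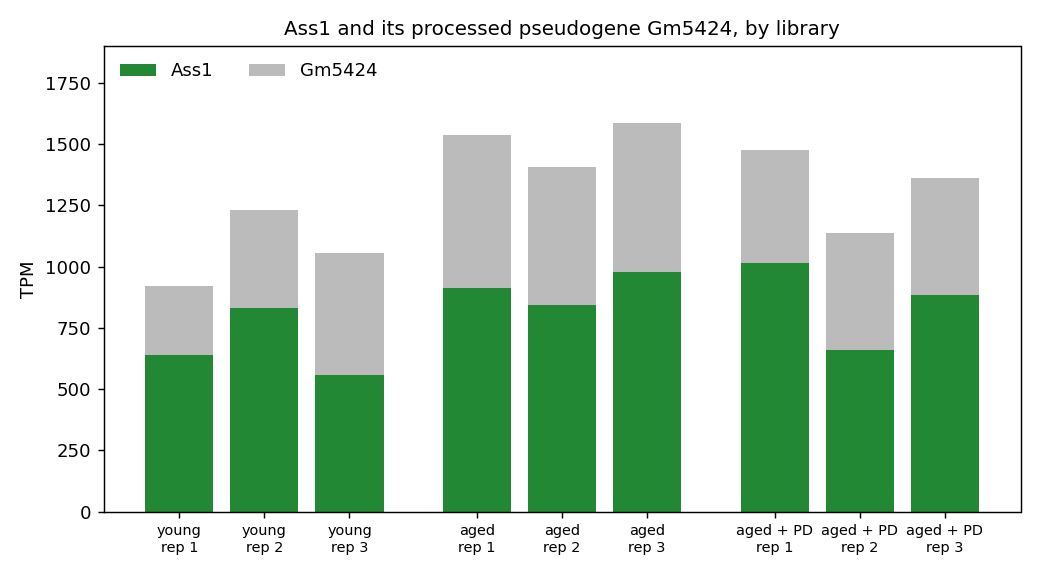
Ass1 and its processed pseudogene Gm5424 in TPM (vertical axis), stacked in 1 bar per library of the young, aged and PD-0332991 treated groups. The full height of a bar is the sum of both. The 3 aged bars are higher than the 3 young bars, with sums of 1407 to 1586 against 922 to 1230 TPM.

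Shared sequence was smaller for the other members. Nags shared 415 of 2889 words (14.4%) with Gm11586, an antisense transcript over its start that is not analysed here; strand is not stated for these libraries, so reads of the 2 cannot be told apart. Sds shared 415 of 1688 words (24.6%), 331 of them with Plbd2, the neighbouring gene whose end overlaps the end of Sds on the other strand. Cps1, Otc, Arg1 and Tat shared 0 words with any other gene. Arg1 and Sds shared none with Arg2 and Sdsl, second genes of the same reaction.

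Across age, none of the 10 enzymes passed the test, while Asl, Nags and Ass1 were each higher in every aged than in every young library. The counts were 0 of 10 members at an adjusted p under 0.05 (limma), where 1.1% of all genes tested were called, and 3 of 10 at an unadjusted p under 0.05, against 15.0% of genes. Those 3 are the members whose groups did not overlap, all higher in aged liver, against 8.82% of genes tested that were higher without overlap. The median log2 difference of the 10 was 0.07, beside -0.01 over all genes, and that of the 6 urea cycle genes was 0.21.

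Asl (chromosome 5, 130011258 to 130029247 in GRCm38) encodes argininosuccinate lyase, which splits off fumarate and leaves arginine. It was listed at 216, 247 and 232 TPM in young, 290, 277 and 339 TPM in aged and 262, 230 and 273 TPM in treated libraries. The aged libraries were the highest 3 of the 9, and the treated ones overlapped the young. Aged minus young Asl was 0.38 ± 0.11 on the log2 scale (SE, n = 3 per group; 95% confidence interval 0.14 to 0.61; limma adjusted p = 0.129). Treated minus aged Asl was -0.24 ± 0.11 (interval -0.48 to -0.01, limma adjusted p = 0.264).

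Nags (chromosome 11, 102145513 to 102149477) encodes N-acetylglutamate synthase, the source of the activator of the first step. It was listed at 32.8, 38.1 and 32.1 TPM in young, 47.4, 49.2 and 39.7 TPM in aged and 45.8, 35.7 and 44.9 TPM in treated libraries. The lowest aged library was just above the highest young one, and 1 treated library lay within the young range. Aged minus young Nags was 0.40 ± 0.13 (SE, n = 3 per group; 95% confidence interval 0.12 to 0.68; limma adjusted p = 0.169). This is the only member that passed the threshold across age when aged replicate 3 was left out, at a limma adjusted p of 0.0398. In that fit 696 genes were called over all, against 112 with all libraries.

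Cps1, Arg1 and Otc gave no such separation by age. Cps1 (chromosome 1, 67123026 to 67231259), the carbamoyl phosphate synthetase of the mitochondria, was at 414, 377 and 507 TPM in young, 461, 472 and 396 TPM in aged and 471, 393 and 363 TPM in treated libraries. Arg1 (chromosome 10, 24915221 to 24927484), the arginase that releases urea, was at 654, 769 and 782 TPM in young, 717, 719 and 803 TPM in aged and 688, 545 and 674 TPM in treated libraries. Otc (chromosome X, 10252305 to 10321024), the ornithine transcarbamylase that makes citrulline, was at 182, 228 and 231 TPM in young, 168, 185 and 213 TPM in aged and 158, 154 and 173 TPM in treated libraries.

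For Cps1 and Arg1 the young and aged ranges lay across each other, and for Otc the aged libraries spread from below to within the young range. The aged minus young log2 differences were 0.04 for Cps1 (95% confidence interval -0.25 to 0.34), 0.02 for Arg1 (-0.23 to 0.28) and -0.18 for Otc (-0.44 to 0.09). Missing the threshold does not show that the levels were alike.

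Gls2, Sds, Tat and Hal also overlapped between young and aged liver. Gls2 (chromosome 10, 128194457 to 128210004), the liver glutaminase that frees ammonia from glutamine, was at 120, 153 and 144 TPM in young, 145, 134 and 157 TPM in aged and 138, 102 and 130 TPM in treated libraries. Sds (chromosome 5, 120476526 to 120483932), serine dehydratase, which turns serine into pyruvate and ammonia, was at 118, 186 and 121 TPM in young, 166, 113 and 211 TPM in aged and 145, 89.6 and 152 TPM in treated libraries. The Sds values varied within each group as much as between groups, and its aged minus young difference of 0.19 had an interval of -0.46 to 0.84.

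With PD-0332991, the member whose values were furthest below those of aged untreated liver was Hal, and Tat was the only one of the 10 with a value above. In treated against aged liver 0 of 10 members passed an adjusted p under 0.05 (limma), where 1.45% of genes were called, and 2 of 10, Hal and Asl, had an unadjusted p under 0.05, against 18.2% of genes. Hal, Asl and Arg1 were lower in every treated than in every aged library, 3 of 10 against 16.7% of genes tested. The median log2 difference of the members was -0.23, beside -0.09 over all genes, and 9 of 10 lay below 0, as did most genes: 33.3% of all genes were above 0. With median-of-ratios scaling, which moved the median of all genes from -0.09 to 0.01, the members' median was -0.12 and 9 of 10 were still below 0; without treated replicate 2 the median was -0.10 and 3 were above 0.

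Hal (chromosome 10, 93488768 to 93519304) encodes histidine ammonia-lyase, which takes the ammonia off histidine. It was listed at 107, 131 and 104 TPM in young, 98.6, 102 and 139 TPM in aged and 90.8, 68.4 and 74.6 TPM in treated libraries. Each treated library was below each of the 6 untreated ones, and young and aged libraries overlapped. Treated minus aged Hal was -0.53 ± 0.15 (SE, n = 3 per group; 95% confidence interval -0.86 to -0.19; limma adjusted p = 0.112), and treated minus young was -0.55 ± 0.15 (interval -0.88 to -0.21, adjusted p = 0.0549).

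Of the genes that follow Hal in histidine breakdown, 1, Ftcd, was called lower in treated against young liver. The list holds 5 genes, among them Hal itself and Hdc, histidine decarboxylase, at 1.07 to 3.66 TPM, which does not follow Hal. In that comparison all 5 had values below 0, with 0 called higher and 1 lower by limma. An unadjusted p under 0.05 was seen for 3 of 5, and the median was -0.35. Hal, Ftcd and Amdhd1 were lower without overlap, 3 of 5 against 24.4% of genes tested. Over all genes 6.88% were called, 24.8% had an unadjusted p under 0.05, and 35.1% lay above 0, so values below 0 were common. Ftcd, which hands the one-carbon unit of histidine to folate, fell by 0.51 in treated against young liver (SE 0.13, limma adjusted p = 0.0376), from 161, 197 and 162 TPM to 137, 103 and 124 TPM, and missed the threshold in 9 of 21 alternatives. Uroc1, urocanase, was at 101, 92.3 and 89.2 TPM in young, 105, 105 and 96.0 TPM in aged and 91.5, 85.8 and 87.7 TPM in treated libraries, a treated minus aged difference of -0.21 with an adjusted p of 0.255. Amdhd1, which also follows Hal, was at 71.8, 90.4 and 70.1 TPM in young and 74.2, 75.1 and 97.0 TPM in aged libraries. Its treated libraries, at 62.7, 54.3 and 64.5 TPM, were each below each untreated one, and it was not called. The list's summed level was 427 to 512 TPM in young, 411 to 497 TPM in aged and 314 to 385 TPM in treated libraries.

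Arg1 in treated minus aged liver was -0.24 ± 0.11 (SE, n = 3 per group; 95% confidence interval -0.49 to 0.01; limma adjusted p = 0.299). Arginase 1 is also made by macrophages and neutrophils; the 10 Kupffer cell and macrophage markers summed to 118 to 161 TPM in aged and 108 to 117 TPM in treated libraries with 0 of 10 called by limma and 4 at an unadjusted p under 0.05, and the 8 neutrophil markers found, of 9, summed to 8.93 to 25.9 TPM in aged and 24.4 to 34.3 TPM in treated libraries. None of these found markers was at 0 in all libraries, but only 3 of the 8 neutrophil markers passed the filter on low values. The part of these cells in the Arg1 values was not tested. Otc in treated liver was 162 ± 9.97 TPM against 189 ± 22.7 TPM in aged liver (SD, n = 3), a log2 difference of -0.21 with an interval of -0.48 to 0.05. The treated minus aged intervals were -0.41 to 0.17 for Cps1, -0.50 to 0.26 for Ass1, -0.39 to 0.17 for Nags, -0.54 to 0.05 for Gls2 and -0.99 to 0.32 for Sds.

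**Figure D3:**
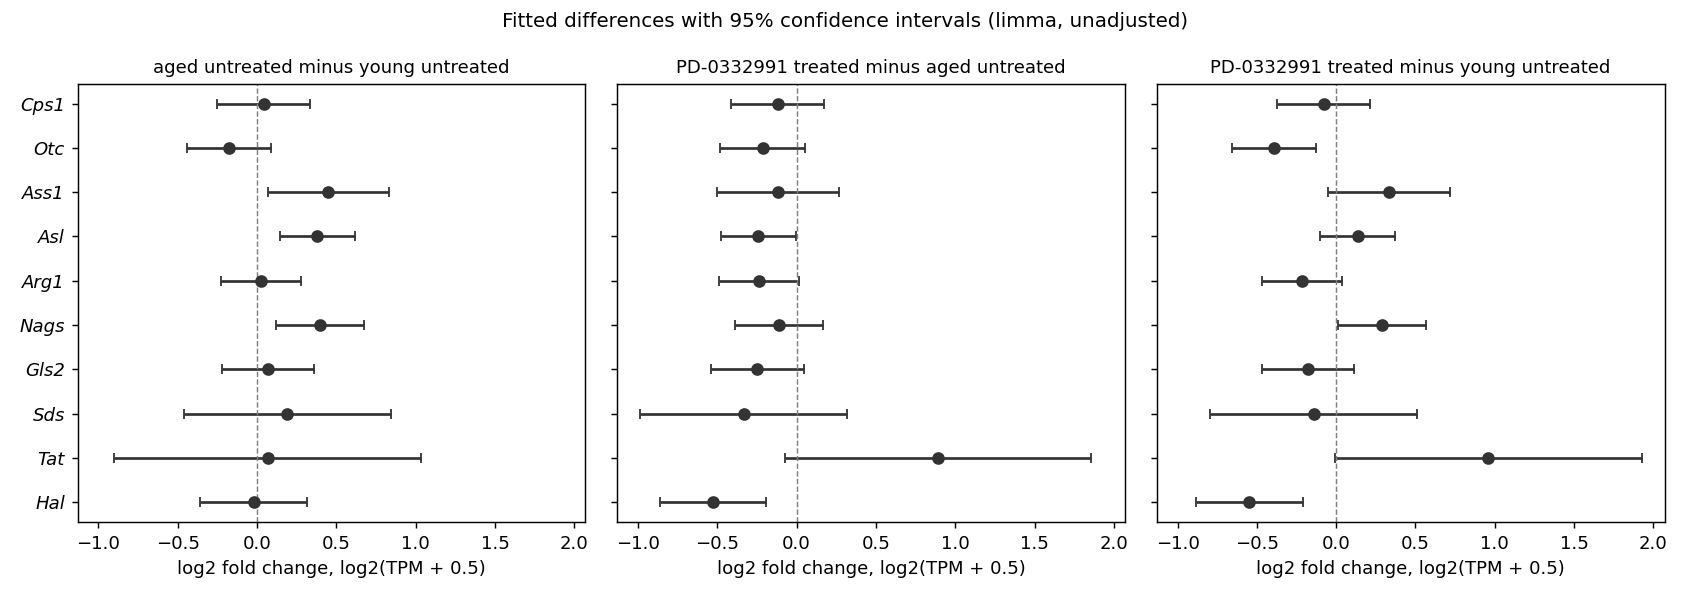
Fitted log2 differences of the 10 enzymes (horizontal axes, log2(TPM + 0.5) scale) with unadjusted 95% confidence intervals, in 3 panels for aged minus young, treated minus aged and treated minus young liver. Intervals clear of 0 are those of Ass1, Asl and Nags in the first panel, Asl and Hal in the second, and Otc, Nags and Hal in the third; no adjusted p was under 0.05.

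Treated aged liver set against young liver joins age and drug in one difference, and again none of the 10 passed the test. By limma 0 of 10 members had an adjusted p under 0.05, where 6.88% of genes were called, and 3 of 10, Otc, Nags and Hal, had an unadjusted p under 0.05, against 24.8% of genes. Tat was higher without overlap, 1 of 10 against 9.55% of genes, and Otc and Hal were lower without overlap, 2 of 10 against 24.4%. The median of the members was -0.11 and that of all genes -0.10. With median-of-ratios scaling these medians were 0.02 and 0.02.

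The members nearest the threshold here were Hal, given above, and Otc. Otc in treated minus young liver was -0.39 ± 0.12 (SE, n = 3 per group; 95% confidence interval -0.66 to -0.13; limma adjusted p = 0.0757). The 3 treated Otc libraries, 154 to 173 TPM, were below the 3 young ones, 182 to 231 TPM, with the aged group across both. Without aged replicate 3, a library that enters only through the shared estimate of the spread, the limma adjusted p was 0.0370 for Otc and 0.0139 for Hal. That fit called 1263 genes over all, against 699 with all libraries. Without treated replicate 1, the limma adjusted p of Hal was 0.0463, with 473 genes called over all.

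Tat had the widest spread of the 10, and it lay in the aged untreated group. Tat (chromosome 8, 109990437 to 109999803) encodes tyrosine aminotransferase, the first step of tyrosine breakdown and a textbook target of glucocorticoids and of fasting. It was listed at 359, 310 and 426 TPM in young, 418, 187 and 697 TPM in aged and 703, 629 and 789 TPM in treated libraries. The treated libraries were all above the young ones, but aged replicate 3 reached the treated range and aged replicate 2 was the lowest of all 9. The coefficient of variation was 58.8% in the aged group.

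Treated minus young Tat was 0.96 ± 0.42 on the log2 scale (SE, n = 3 per group; 95% confidence interval -0.01 to 1.92; limma adjusted p = 0.205). Treated minus aged Tat was 0.89 ± 0.42 (interval -0.08 to 1.86, adjusted p = 0.305), and became 0.38 without aged replicate 2 and 1.33 without aged replicate 3. Aged minus young Tat was 0.07, and changed sign with the same libraries, 0.58 without aged replicate 2 and -0.37 without aged replicate 3. In a fit of the young and treated libraries alone, treated minus young Tat had an adjusted p of 0.000779; without aged replicate 2 it was 0.0195. The ratio of Tat to Hal, both per length, was 2.37 to 4.11 in young, 1.83 to 5.03 in aged and 7.74 to 10.6 in treated libraries, so the treated ratios lay above all others.

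Among the 16 tested genes of a list of regulators and hormone-responsive genes, Cebpb rose and Atf4 fell with the drug. Cebpb, a transcription factor of the C/EBP family, was at 73.8, 78.8 and 90.4 TPM in young, 84.0, 71.0 and 88.6 TPM in aged and 156, 133 and 187 TPM in treated libraries, with every treated library above every untreated one. Its treated minus aged difference was 0.96 ± 0.14 (SE, n = 3 per group; limma adjusted p = 0.0156), and the adjusted p was 0.0577 without treated replicate 3. Atf4, the factor of the amino acid shortage response, was at 87.2, 98.0 and 93.4 TPM in aged and 68.8, 68.8 and 60.4 TPM in treated libraries, a difference of -0.49 ± 0.10 (SE, limma adjusted p = 0.0336) that missed the threshold in 11 of 21 alternative analyses. In the same comparison 1 of 16 was called higher and 1 lower, against 1.45% of all genes called. The list's median was 0.20, beside -0.09 over all genes. Across age 0 were called by limma, and 2 had an unadjusted p under 0.05, against 15.0% of all genes.

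Pck1 and Klf15 had the library pattern of Tat. Pck1, the phosphoenolpyruvate carboxykinase of gluconeogenesis, was at 434, 382 and 482 TPM in young, 418, 235 and 797 TPM in aged and 866, 813 and 1067 TPM in treated libraries. Klf15, a glucocorticoid-responsive factor singled out after its values were seen, was at 47.9, 47.9 and 46.3 TPM in young, 42.7, 29.3 and 71.1 TPM in aged and 67.4, 71.3 and 79.6 TPM in treated libraries. For both, as for Tat, aged replicate 2 was the lowest and aged replicate 3 the highest untreated library. Treated minus aged Pck1 was 1.09 (limma adjusted p = 0.192) and Klf15 0.70 (adjusted p = 0.191), so neither was called.

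**Figure D4:**
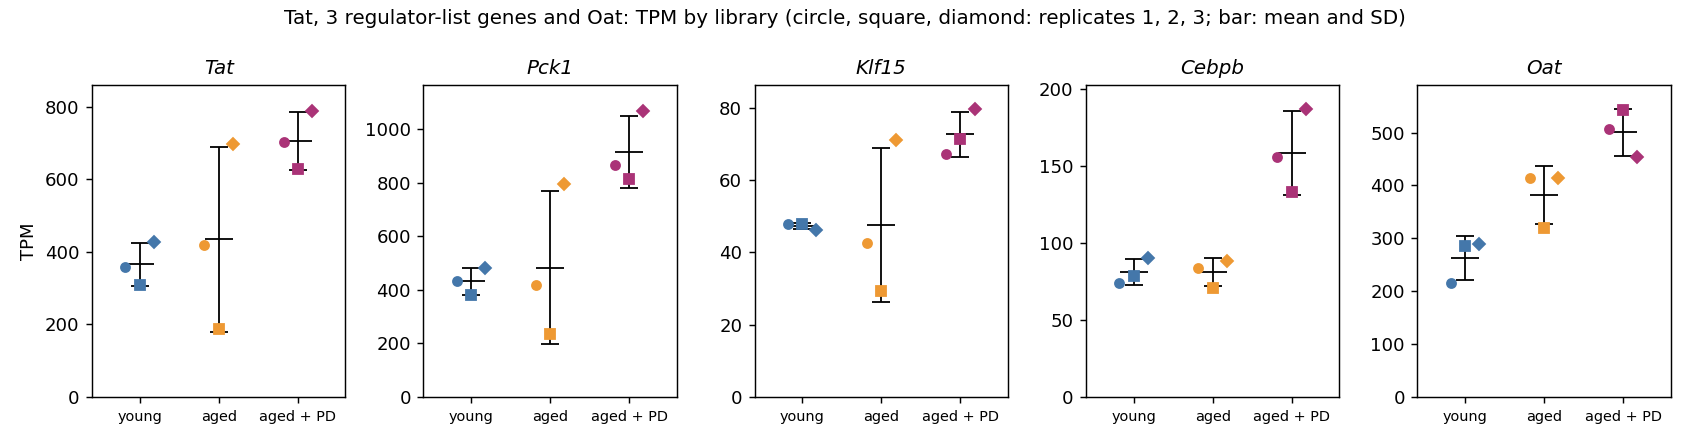
TPM (vertical axes, each starting at 0) of Tat, Pck1, Klf15, Cebpb and Oat in each library of the young, aged and PD-0332991 treated groups; circle, square and diamond are replicates 1, 2 and 3 and bars give the mean and SD. In Tat, Pck1 and Klf15 aged replicate 2 is lowest and aged replicate 3 is highest of the untreated libraries, while Cebpb shows no overlap between treated and untreated libraries.

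Promoter sequences were at hand in the RefSeq table (GRCm38.p6) for 5 of the 10 members: Ass1, Tat, Hal, Nags and Otc. Each covers 250 bases before to 50 after the annotated start, and 3 are printed 5′ to 3′ on the coding strand because Hal and Tat differ most between treated and untreated liver and Ass1 across age: Hal (chr10:93488518-93488817, plus strand), Tat (chr8:109990186-109990485, plus strand) and Ass1 (chr2:31470020-31470319, plus strand). Capitals mark matches, on either strand, to TTNNGNAA, a degenerate C/EBP word, and to TATAAA, the TATA box.
Hal: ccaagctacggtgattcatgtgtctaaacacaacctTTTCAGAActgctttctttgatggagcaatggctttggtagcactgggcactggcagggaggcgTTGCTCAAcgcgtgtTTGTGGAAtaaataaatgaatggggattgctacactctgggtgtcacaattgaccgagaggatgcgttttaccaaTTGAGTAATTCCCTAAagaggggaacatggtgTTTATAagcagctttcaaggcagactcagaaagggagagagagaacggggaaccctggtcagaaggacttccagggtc
Tat: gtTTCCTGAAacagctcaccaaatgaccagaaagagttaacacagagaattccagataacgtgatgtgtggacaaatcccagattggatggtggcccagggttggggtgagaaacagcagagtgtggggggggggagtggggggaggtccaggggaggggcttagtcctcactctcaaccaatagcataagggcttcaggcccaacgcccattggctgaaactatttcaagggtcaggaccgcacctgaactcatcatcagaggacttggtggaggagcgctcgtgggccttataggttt
Ass1: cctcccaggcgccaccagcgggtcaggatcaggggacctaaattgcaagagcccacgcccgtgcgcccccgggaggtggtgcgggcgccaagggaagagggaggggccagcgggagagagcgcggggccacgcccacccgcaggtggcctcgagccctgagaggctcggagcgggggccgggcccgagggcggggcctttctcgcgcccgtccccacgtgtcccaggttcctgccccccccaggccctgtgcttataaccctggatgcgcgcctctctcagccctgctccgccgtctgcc
In these 300 bases Hal holds 5 C/EBP words and 1 TATA box on the minus strand, Tat holds 1 C/EBP word at its far end, and Ass1 holds none of the searched words and has a GC content of 74.0%, against a median of 52.7% over 32851 promoters. Of those promoters 40.7% hold TTNNGNAA and 13.6% TATAAA.

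Of the other promoters, Nags holds 1 C/EBP word and 1 TGACG, the core of the cAMP response element, which 20.8% of promoters hold, and Otc holds 2 C/EBP words. None of the 5 holds the full element TGACGTCA (1.79% of promoters), the C/EBP palindrome TTGCGCAA (0.183%), the glucocorticoid receptor word TGTTCT (19.0%), the HNF1 word GTTAAT (7.1%) or the HNF4 word CAAAGTCCA (0.475%). TGACG is part of TGACGTCA, and all words were searched on both strands. A match describes letters in this window and says nothing of binding.

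Arg2 and Sdsl stayed below the members of the same reaction. Arg1 was 1811 to 9719 times Arg2, the mitochondrial arginase, which never exceeded 0.372 TPM. Sdsl, a close relative of Sds, was at 11.5 to 19.3 TPM, and Sds was 6.52 to 10.9 times as high. These ratios use TPM and so are per length.

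Among the members the library-to-library pattern was most alike for Arg1 and Gls2, with a Pearson r of 0.96 over the 9 libraries on the log2 scale and 0.96 after group means were removed. Sds and Sdsl had an r of 0.84, and of 0.92 after group means were removed. Tat and Hal had an r of -0.37 over the 9 libraries but of 0.42 after group means were removed. These values describe libraries that share depth, scaling and composition, and carry no test. The 5 genes most like Cps1 over the 9 libraries, predicted genes left out, were Ctnna1 (r = 0.95), Prpf6 (0.94), Ist1 (0.94), Smox (0.93) and Dnajc16 (0.91). The 5 most like Sds were Psmb5 (0.98), Tmem238 (0.95), Coa6 (0.95), Cenpb (0.95) and Ndufb10 (0.94).

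Around the cycle, Oat rose and Glud1 and Car5a fell in treated against young liver, the 3 genes called among 10 tested partners, against 6.88% of all genes. By limma 0 of 10 were called across age and with the drug. There 3 and 4 had an unadjusted p under 0.05, against 15.0% and 18.2% of all genes. Oat encodes ornithine aminotransferase, which draws ornithine away from the cycle, and is a pericentral gene. It was at 215, 285 and 289 TPM in young, 414, 319 and 415 TPM in aged and 507, 542 and 454 TPM in treated libraries, 3 ranges without overlap. Treated minus young Oat was 0.94 ± 0.14 (SE, n = 3 per group; limma adjusted p = 0.00539), called in all 21 alternatives, while aged minus young was 0.54 (adjusted p = 0.101) and treated minus aged 0.40 (adjusted p = 0.178).

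Glud1, glutamate dehydrogenase, and Car5a, the mitochondrial carbonic anhydrase that supplies bicarbonate to Cps1, fell. Young libraries held Glud1 at 273, 297 and 273 TPM and treated ones at 217, 203 and 231 TPM, a difference of -0.37 (limma adjusted p = 0.0317). Car5a values were 29.3, 31.2 and 26.5 TPM in the young against 23.0, 17.1 and 19.7 TPM in the treated group, a difference of -0.54 (adjusted p = 0.0370). Each missed the threshold in 9 of 21 alternatives, median-of-ratios scaling among them. The partners' median was 0.03 across age, -0.24 with the drug and -0.24 in treated minus young liver. Those of all genes were -0.01, -0.09 and -0.10.

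Glul, glutamine synthetase, takes up ammonia that escapes the cycle in pericentral cells. It was at 187, 195 and 183 TPM in young, 238, 221 and 245 TPM in aged and 174, 192 and 173 TPM in treated libraries. The aged libraries were the highest 3, but neither the aged minus young difference of 0.31 (limma adjusted p = 0.118) nor the treated minus aged difference of -0.39 (adjusted p = 0.0555) passed. The mitochondrial carriers Slc25a15, for ornithine, at 62.5 to 92.4 TPM, and Slc25a13, for aspartate, at 40.1 to 54.9 TPM, were called in no comparison.

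Other amino acid routes had few calls. Among all genes tested, 1.1% were called across age, 1.45% with the drug and 6.88% in treated minus young liver. Methionine and cysteine metabolism had 2 of 14 genes called higher across age: Gnmt, glycine N-methyltransferase, by 0.49 (limma adjusted p = 0.0195) from 1111, 1096 and 1113 to 1587, 1503 and 1560 TPM, and Cth, cystathionine gamma-lyase, by 0.74 (adjusted p = 0.0278) from 156, 220 and 187 to 307, 294 and 328 TPM. Each missed the threshold in 7 of 21 alternatives. With the drug, 1 of 14 was called lower, Ethe1, a sulfur dioxygenase, at -0.75 (adjusted p = 0.0227, missed in 6 of 21), and in treated minus young liver 3 of 14 were called higher: Mat1a by 0.45 (adjusted p = 0.0317), Got1 by 0.59 (0.0394) and Gnmt by 0.30 (0.0496). Mat1a and Got1 each missed the threshold in 9 of 21 alternatives and Gnmt in 14, a pseudocount of 1 and quantile normalization among them.

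In tryptophan breakdown 0 of 11 genes were called by limma across age or with the drug. There 4 and 3 had an unadjusted p under 0.05, against 15.0% and 18.2% of all genes. By limma 4 of 11 were called in treated minus young liver, against 6.88% of all genes. In that last comparison Tdo2, the first enzyme of the route, fell by 0.60 (limma adjusted p = 0.0368) and Ido2 fell by 0.60 (adjusted p = 0.00576). Acmsd, at 1.11 (adjusted p = 0.0230), and Ccbl2, at 0.63 (adjusted p = 0.0127), were higher. Ido2 averaged 28.5 ± 0.557 TPM in young and 18.7 ± 0.578 TPM in treated libraries (SD, n = 3) and was called in all 21 alternatives; Tdo2 missed the threshold in 8, Acmsd in 7 and Ccbl2 in 4. Among proline, arginine and lysine genes, Hykk, hydroxylysine kinase, was the 1 of 10 called across age, at 12.1, 11.7 and 11.1 TPM in young, 4.29, 3.87 and 6.69 TPM in aged and 10.6, 10.8 and 10.8 TPM in treated libraries. Its differences were -1.19 across age (adjusted p = 0.00798) and 1.08 with the drug (adjusted p = 0.0158), and -0.11 in treated minus young liver (adjusted p = 0.730). The threshold across age was missed without young replicate 1, at an adjusted p of 0.0514, and that with the drug in 4 of 21 alternatives.

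The branched-chain amino acid list had 0 of 21 tested genes called by limma in each comparison, with medians of -0.11, -0.08 and -0.24 for aged minus young, treated minus aged and treated minus young liver; 1, 2 and 10 had an unadjusted p under 0.05. Over all genes those medians were -0.01, -0.09 and -0.10, and 15.0%, 18.2% and 24.8% had an unadjusted p under 0.05. Phenylalanine and tyrosine breakdown, which includes Tat, had 0 of 8 in each by limma and 1, 0 and 1 at an unadjusted p under 0.05, with medians of 0.05, -0.08 and 0.03. Serine, glycine, threonine and alanine breakdown, which includes Sds, had 0, 0 and 1 of 16, the 1 being Got1, aspartate aminotransferase, higher in treated minus young liver by 0.59 (adjusted p = 0.0394).

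**Figure D5:**
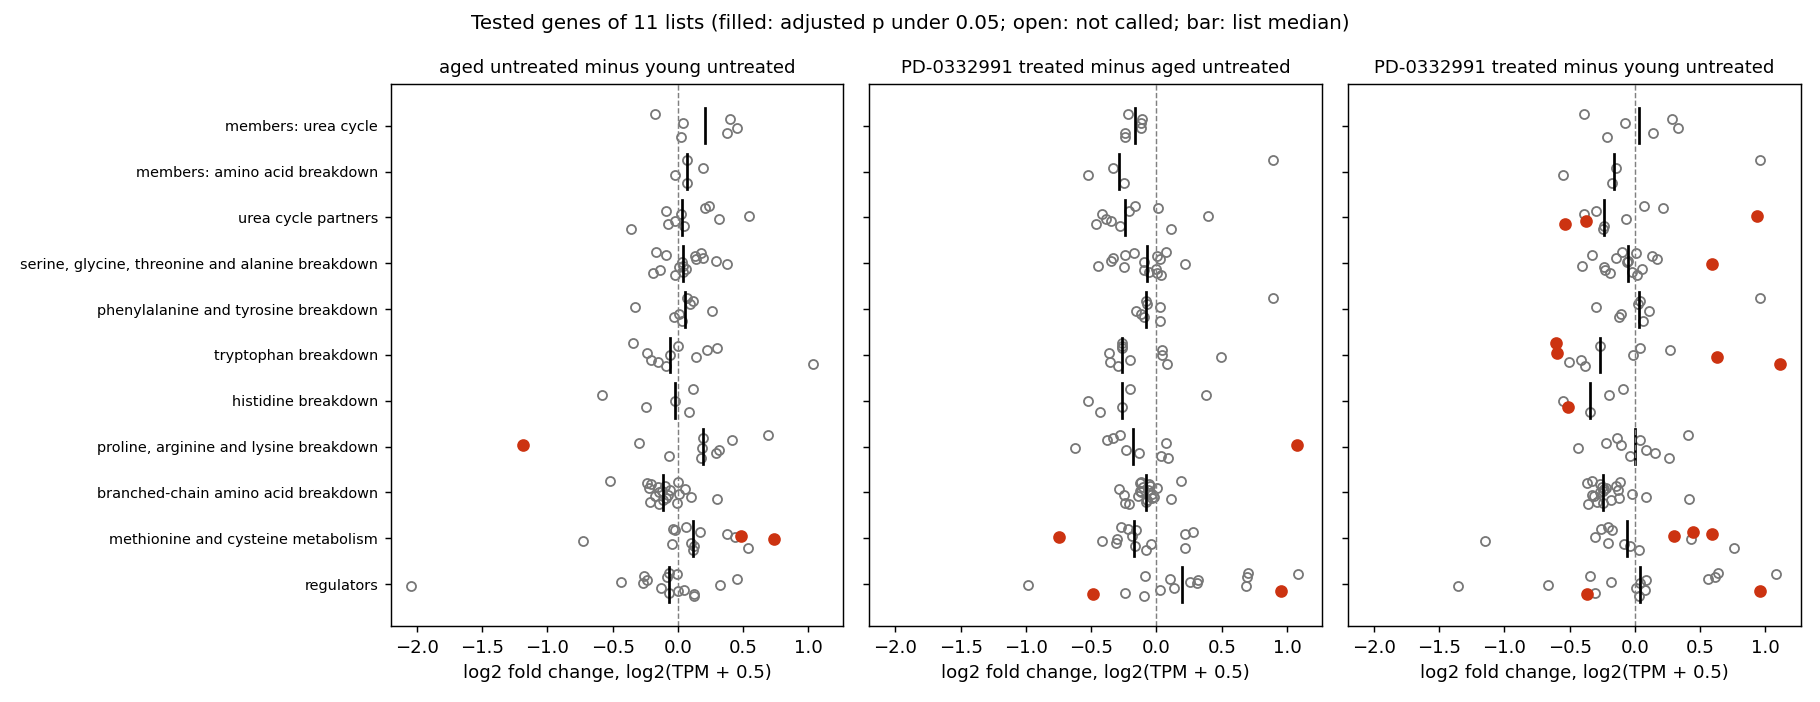
Fitted log2 differences (horizontal axes) of the tested genes of 11 lists (rows) for the 3 comparisons; open points are genes not called, filled points are genes called at an adjusted p under 0.05, and bars are list medians. Medians lie between -0.35, for histidine breakdown in treated minus young liver, and 0.21, for the 6 urea cycle genes in aged minus young liver.

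Position along the lobule was read from 15 periportal genes outside the 10 members and 17 tested pericentral genes. Periportal medians were 0.09 across age and -0.30 with the drug, and pericentral medians 0.06 and -0.26, so the treated minus aged median was below 0 in both lists. The medians of all genes were -0.01 and -0.09. Called periportal genes were Pigr and Igfbp2, higher across age, Igfbp2 and Cdh1, lower with the drug, and Pigr, higher, and Cdh1, lower, in treated minus young liver. With the drug, Igfbp2 missed the threshold in 13 of 21 alternatives, median-of-ratios scaling among them, and Cdh1 in 9, quantile normalization among them. Called pericentral genes were Slc1a2, higher across age, and Slc1a2 and Oat, higher, and Cyp7a1, lower, in treated minus young liver. The shares of all genes called were 1.1% across age, 1.45% with the drug and 6.88% in treated minus young liver.

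The acute phase genes and some markers of other cell types differed between groups, and their part in the enzyme values was not tested. The 16 acute phase genes summed to 8548 to 15499 TPM in young, 9613 to 34611 TPM in aged and 23041 to 36008 TPM in treated libraries. In treated minus young liver 3 of 16 were called higher by limma, Lbp, Crp and Fgg, against 6.88% of all genes called. These missed the threshold in 4, 4 and 11 of 21 alternatives. All 16 were higher without overlap, against 9.55% of genes tested, with a median of 1.30. Saa1, singled out after its values were seen, ran from 123 to 6008 TPM within the aged group, where aged replicate 1 was the highest and aged replicate 3, highest for Tat, the lowest. In treated minus young liver 3 of 3 tested neutrophil markers were called higher, with a list sum of 2.99 to 3.89 TPM in young and 24.4 to 34.3 TPM in treated libraries, and 5 of 10 Kupffer cell and macrophage markers were called lower, with sums of 122 to 179 and 108 to 117 TPM; over all genes 6.88% were called. Of those 5, Cd68, Vsig4 and Timd4 missed the threshold under median-of-ratios scaling, quantile normalization and other alternatives. Clec4f and Csf1r each missed it in 5 of 21, mostly with single libraries left out. Lyz2 was the 1 macrophage marker above 0, at 31.1 to 36.1 TPM in young and 33.8 to 38.5 TPM in treated libraries. Neutrophil markers found but too low to test were at most 0.758 TPM. Among them, Cxcr2 at 0.0912 to 0.758 TPM in treated libraries spanned the young 0.273 to 0.342 TPM. Of 11 tested hepatocyte markers, 1 was called in treated minus young liver, Ttr, at -0.41 (limma adjusted p = 0.0357). It missed the threshold in 11 of 21 alternatives, median-of-ratios scaling among them. Of the 11, 5 lay above 0 and 6 below in that comparison.

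The remaining marker lists were low, with single members called: Sox9 of the cholangiocyte list at 1.03 (limma adjusted p = 0.0328), Lyve1 of the sinusoidal endothelial list at -1.22 (adjusted p = 0.0449) and Col3a1 of the stellate cell list at -1.17 (adjusted p = 0.0186) across age. Sox9 missed the threshold in 10 of 20 alternatives, Lyve1 in 11 and Col3a1 in 5. Col3a1 was also the 1 of 10 called in treated minus young liver, against 6.88% of all genes, at -1.25 (adjusted p = 0.00603). That call held in all 20. The part of these cell types in the enzyme values was not tested. Cholangiocyte markers summed to 22.0 to 25.2 TPM in young, 15.9 to 27.4 TPM in aged and 12.3 to 17.8 TPM in treated libraries. In the same order, sinusoidal endothelial sums were 82.2 to 87.8, 70.9 to 93.5 and 68.3 to 84.1 TPM. Stellate cell sums were 142 to 147, 105 to 151 and 93.1 to 135 TPM. Lymphocyte sums were 4.69 to 7.28, 1.95 to 8.90 and 1.70 to 3.31 TPM. Treated sums of the cholangiocyte, stellate cell and lymphocyte lists lay below all young sums, and the aged ranges crossed the young ones. Of 11 pancreas, gut and kidney markers 6 were listed at 0 in all libraries (Cpa1, Pnlip, Amy2a5, Umod, Slc12a1 and Kap), and the list summed to 93.2 to 124 TPM in young, 38.4 to 90.6 TPM in aged and 57.4 to 89.8 TPM in treated libraries. Nearly all of that sum came from Fabp2, at 21.6 to 96.7 TPM over all libraries, and Cela1, at 16.8 to 33.7 TPM. Ctrb1, the highest of the others, reached at most 0.158 TPM. Kidney, gut and pancreas also make several of the 10 enzymes, among them Ass1, Asl and Otc.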

How the data were processed

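The authors deposited 1 table per library of gene symbols with TPM values. Per the submitters' processing notes, abundance was estimated with kallisto on mm10; for its version, the annotation and how transcripts were summed to genes, the entry is "not given in the sources used here". TPM keeps no depth, so no count test or counting interval is given. From these tables log2(TPM + 0.5), which understates changes of low genes, was fitted for 10161 genes at 1 TPM or above in 3 or more libraries. The fit used limma 3.58.1 in R 4.3.3 on all 9 libraries in 1 model, with group as its term, an intensity trend and robust variance. Tests were two-sided, with Benjamini-Hochberg adjustment over all genes tested and a threshold of 0.05; the code was tested on simulated data. Rows of symbols that occur more than once (4) were left out. Of 253 genes in the lists, 247 matched by symbol, 4 by synonym and 2 by neither. The members and lists were chosen with earlier results of these data known. Named genes are all members, related genes chosen by name, up to 6 called and 2 highest uncalled genes of each list, and the 5 most like Cps1 and Sds. Sequence words and positions come from GENCODE vM21 (GRCm38) and promoters from RefSeq. Alternatives changed the pseudocount, filter, scaling, weights, variance model and libraries used.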

Additional observations from a re-analysis of the deposited data

How the results depend on the processing

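Of 10 members, 0 were called with the drug under every alternative run. Across age 0 were called, but 1 with array weights (Nags, adjusted p = 0.0418) and 0 to 1 when single libraries were left out (Nags without aged replicate 3, 0.0398). In treated minus young liver 0 were called, but 2 after rescaling to the same listed total (Otc 0.0373, Hal 0.0302), 2 after quantile normalization (Otc 0.0442, Hal 0.0270), 1 with array weights (Hal 0.0227), 3 in a fit of these 2 groups only (Otc 0.0436, Hal 0.0173, Tat 0.000779) and 0 to 2 with single libraries left out. The cause of these changes was not tested. The members' medians ran from -0.0010 to 0.23 across age, from -0.27 to -0.10 with the drug and from -0.22 to 0.03 in treated minus young liver when single libraries were left out.

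Log2 differences near 0 changed sign. Quantile normalization gave -0.035 for Cps1, -0.021 for Arg1 and -0.0076 for Tat across age, array weights gave -0.093 for Tat, and median-of-ratios scaling gave 0.049 for Cps1 and 0.056 for Glul in treated minus young liver. With single libraries left out, aged minus young ran from -0.052 to 0.16 for Cps1, -0.057 to 0.072 for Arg1, -0.034 to 0.14 for Gls2, -0.016 to 0.43 for Sds, -0.37 to 0.58 for Tat and -0.18 to 0.082 for Hal. Treated minus aged ran from -0.26 to 0.057 for Ass1 and -0.20 to 0.0020 for Nags, and treated minus young from -0.18 to 0.042 for Cps1 and -0.28 to 0.10 for Sds.

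Counts over all genes moved more. Across age 112 genes were called, 490 with array weights, 62 without the filter, 66 without trend and robust variance, 49 in a fit of the 2 groups only and 15 to 696 with single libraries left out. With the drug 147 were called, 271 with array weights, 29 without the filter, 25 in the fit of 2 groups and 7 to 392 with single libraries left out; in treated minus young liver 699, then 1354, 1282 in the fit of 2 groups and 151 to 1263. Genes higher and lower with the drug numbered 62 and 85, 119 and 55 with median-of-ratios scaling and 88 and 56 with quantile normalization. In treated minus young liver they numbered 263 and 436, then 386 and 228, and 308 and 310. With the replicate number as a block (replicate block), 0 members were called in each comparison and 91, 60 and 492 genes over all. Deviations of same-numbered libraries correlated at -0.22 to 0.17 over 9 pairs, and those of differently numbered ones at -0.22 to 0.23 over 18 pairs. No pairing by number was seen, though 3 libraries per group cannot show that there is none. Depth is not known, so its limits cannot be given.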
